A study of Mus musculus with 7 samples.

Results

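The adipogenic transcription factors are 10 genes named for their part in the formation of fat cells, and they were picked by name from 35498 genes with at least 1 quantified transcript. They are Pparg, Cebpa, Cebpd, Klf5, Klf15, Srebf1, Zfp423, Zfp467, Nr1h3 and Stat5a. They were measured by strand-specific mRNA sequencing of whole bone marrow, in 3 libraries from Aim2 knock-out (KO) mice and 4 libraries from wild type (WT) mice, all female and aged 5 to 6 months. By its title the study asked about fat cell formation in marrow after deletion of Aim2, a sensor of cytosolic DNA. The labels give neither the deleted part of Aim2 nor the strain, nor whether the libraries of a group are from separate mice, and p-values therefore describe differences from library to library.

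Fat cells arise from mesenchymal precursors, which in marrow are stromal cells that express the leptin receptor. C/EBPβ and C/EBPδ act early in this process and switch on PPARγ and C/EBPα, which maintain each other and turn on the genes of lipid storage. Several of these factors also work in blood cells: C/EBPα drives the formation of granulocytes, LXRα (Nr1h3) is active in macrophages and STAT5A carries signals of cytokine receptors. In bulk tissue, fewer cells of a type and less RNA per cell cannot be told apart.

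The KO libraries held 20777315 to 21027429 estimated reads and the WT libraries 20300468 to 21099972. Reads of Aim2 numbered 157, 47 and 59 in KO libraries, against 601, 573, 535 and 533 reads in the WT libraries, so the log2 fold change was -2.76 ± 0.38 (SE) with an adjusted p of 0.028. Which exons the remaining reads fell on was not analysed here. Markers of marrow were present in TPM, a measure of abundance corrected for transcript length. The 9 erythroid markers in the annotation, of 10 listed, summed to 282435 to 330692 TPM in KO against 336088 to 444150 TPM in WT, and the 10 neutrophil markers to 49326 to 56257 TPM in KO against 32049 to 47025 TPM in WT. The 10 markers of fat cells summed to 253.8 to 382.1 TPM in KO and 245.5 to 319.3 TPM in WT. Of these, Plin4, Cidec, Lep and Pck1 were each at 0 in at least 1 library. Only 5 of the 10 had enough reads to be tested, and Adipoq is also among the stromal markers read below. Haemoglobin genes held 11.3 to 13.7% of the reads in KO against 13.8 to 19.9% in WT, where library 1 had the top share.

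None of the 10 factors changed between KO and WT marrow. All 10 passed the filter on low counts, 0 had an adjusted p under 0.05 in edgeR's quasi-likelihood test, and 0.646% of the 14238 tested genes did. DESeq2 and limma voom with sample weights also called 0 of the 10, while DESeq2 called 2.76% and voom 2.14% of all genes they tested. At an unadjusted p under 0.05, edgeR and DESeq2 each found 0 and voom found 2, Klf15 and Nr1h3. Over all tested genes that share was 11.5% in edgeR, 8.17% in DESeq2 and 18% in voom. The log2 fold changes of 6 factors lay above 0 and those of 4 below, with a median of 0.08 against -0.01 over all tested genes. The levels in KO and WT overlapped for all 10, whereas 12.9% of tested genes had groups that did not overlap. A p that misses the threshold does not show that the levels were equal, and the 95% intervals of the fold changes are given with each gene. Errors are SDs over 3 KO and 4 WT libraries for levels and SEs for fold changes.

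**Figure D1:**
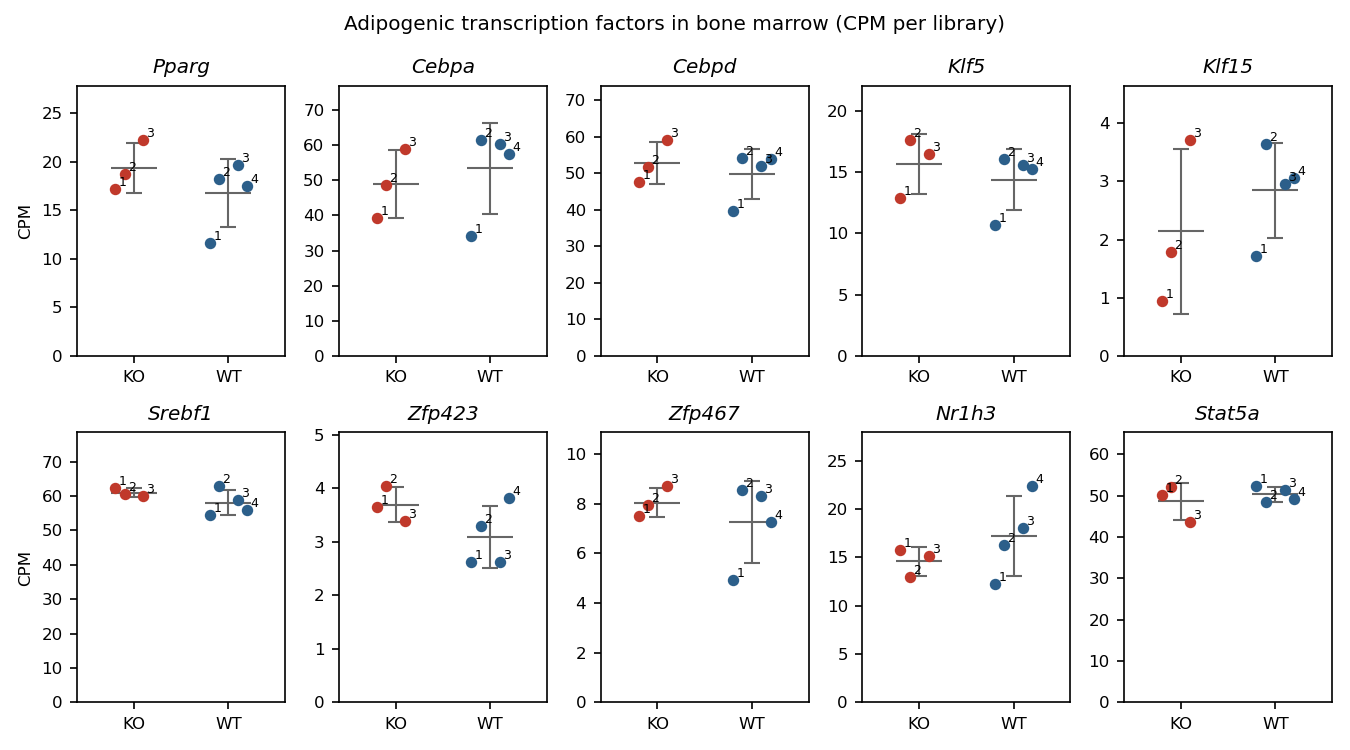
Level of each factor in CPM (reads scaled to library size) in each library, with KO in red left of WT in blue. Numbers beside the points are library numbers, bars are the mean ± SD over 3 KO and 4 WT libraries, and each panel has its own axis from 0. The groups overlap in every panel, and WT library 1 lies lowest in 7 of them.

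Levels can be set side by side between genes in TPM, which corrects for transcript length. Cebpa had the top mean over the 7 libraries, 23.1 ± 5.75 TPM (SD), followed by Srebf1 at 17.6 ± 2.41, Cebpd at 14.8 ± 2.71, Stat5a at 13.3 ± 1.07, Pparg at 10.6 ± 2.51 and Nr1h3 at 9.15 ± 2.19 TPM. Klf5 at 4.96 ± 1.08 and Zfp467 at 4.75 ± 1.15 TPM formed a lower step. Klf15 at 1.17 ± 0.56 and Zfp423 at 0.79 ± 0.26 TPM were lowest. Of the 9 neighbouring pairs in this order, only Zfp467 and Klf15 had ranges over the libraries that did not overlap. Klf5 exceeded Zfp467 in 2 of 7 libraries, so these genes had no settled order.

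Pparg encodes PPARγ, the nuclear receptor that fat cell formation requires. The gene (ENSMUSG00000000440.12) lies on the plus strand of chromosome 6 at chr6:115360951-115490399 (GRCm38). Its level was 17.2, 18.7 and 22.3 CPM in the KO libraries, against 11.7, 18.2, 19.7 and 17.5 CPM in the WT libraries. KO library 3 was highest and WT library 1 lowest, and the other 5 libraries lay together between them. The mean was 19.4 ± 2.58 CPM in KO against 16.8 ± 3.51 CPM in WT (SD), a log2 fold change of 0.21 ± 0.18 (SE) with a 95% interval of -0.20 to 0.62 (adjusted p = 0.713). With WT library 1 left out the log2 fold change was 0.075, and with KO library 3 left out it was 0.093.

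Pparg is read from several start sites, and windows around them are shown because the reads divided unequally between them. Transcripts Pparg-202 and Pparg-204 begin upstream and both code for PPARγ1, which many cell types make, with 1425 coding bases. Pparg-201 begins at an internal promoter and codes for PPARγ2, the form typical of fat cells, with 1515 coding bases and a longer amino end. The windows run from 250 bases before a RefSeq start site to 50 bases from it on the plus strand (RefSeq, GRCm38.p6). The outer window is chr6:115360894-115361193, and Pparg-202 starts inside it, at 115360951, so that most of the window is transcribed in Pparg-202. The inner window is chr6:115362099-115362398, with Pparg-204 starting inside it at 115362292 and the minor transcript Pparg-206 at its RefSeq start site, 115362349. The PPARγ2 window is chr6:115421816-115422115, and its start site is the start of Pparg-201. Capitals mark GGGCGG, the GC box bound by Sp1-like factors, TTGCAA, a core of C/EBP sites, and TATAAA, the TATA box, each on either strand.
Pparg outer window: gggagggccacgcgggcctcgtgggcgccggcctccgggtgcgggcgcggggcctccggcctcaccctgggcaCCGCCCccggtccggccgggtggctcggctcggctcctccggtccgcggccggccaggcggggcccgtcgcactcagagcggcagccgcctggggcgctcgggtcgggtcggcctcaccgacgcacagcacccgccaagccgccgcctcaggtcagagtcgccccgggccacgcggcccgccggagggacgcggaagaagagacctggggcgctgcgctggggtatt
Pparg inner window: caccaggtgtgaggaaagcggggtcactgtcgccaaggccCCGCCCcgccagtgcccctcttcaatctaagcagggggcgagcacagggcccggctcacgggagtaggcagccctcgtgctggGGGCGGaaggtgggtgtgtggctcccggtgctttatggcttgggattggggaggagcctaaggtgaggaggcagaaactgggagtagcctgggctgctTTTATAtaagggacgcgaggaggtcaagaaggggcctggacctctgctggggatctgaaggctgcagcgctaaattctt
Pparg PPARγ2 window: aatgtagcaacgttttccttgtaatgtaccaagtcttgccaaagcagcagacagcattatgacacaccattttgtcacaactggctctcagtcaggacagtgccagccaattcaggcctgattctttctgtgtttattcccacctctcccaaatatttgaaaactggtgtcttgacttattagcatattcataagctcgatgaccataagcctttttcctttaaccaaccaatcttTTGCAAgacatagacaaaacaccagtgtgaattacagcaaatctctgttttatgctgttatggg

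The GC share was 80.3% in the outer window, 62.7% in the inner window and 40.3% in the PPARγ2 window, against a median of 52.7% over 32851 promoter windows. The outer window held 1 GC box, at -177 from its RefSeq start site and inside Pparg-202, and the inner window held 2, both before the start of Pparg-204. At least 1 GC box occurred in 35.7% of all windows. TATAAA occurred once in the inner window, at -29 from its RefSeq start site, which lies before the start of Pparg-206 and inside Pparg-204, and in 13.6% of all windows. TTGCAA occurred once in the PPARγ2 window, at -14 from the start of Pparg-201, and in 6.23% of all windows. These matches describe letters, not binding.

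Most Pparg reads were assigned to the PPARγ1 transcript Pparg-204, with 322.5, 301.2 and 405.4 estimated reads in the KO libraries, against 167.9, 283.1, 309.8 and 296.4 in the WT libraries. It held 81.9 ± 4.63% of Pparg TPM in KO and 78.2 ± 2.89% in WT, and Pparg-202 held 13.6 ± 4.83% in KO and 15.1 ± 7.62% in WT (SD). The PPARγ2 transcript Pparg-201 had 0, 0 and 17.1 reads in the KO libraries, against 38.5, 11.8, 0 and 0 reads in the WT libraries. For this transcript 4 of the 7 libraries were at 0. A directly observed count of 0 would allow up to 3 reads. These values are assignments by Salmon's model among isoforms that share reads, so more reads can lie behind a 0. WT library 1, with the fewest Pparg reads, had the most for PPARγ2.

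The PPARγ2 share of Pparg TPM was 0, 0 and 3.68% in the KO libraries, against 17.8, 3.35, 0 and 0% in the WT libraries. Its mean was 1.23 ± 2.12% in KO and 5.29 ± 8.50% in WT (SD), a difference of -4.07 percentage points (exact permutation test, two-sided, p = 0.914, 3 against 4 libraries). The smallest p this design allows is 0.0571. Leaving out WT library 1 gave a difference of 0.11 points, so its direction rested on that library. Salmon divides reads shared by isoforms by a model, and that error is not in these values.

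**Figure D2:**
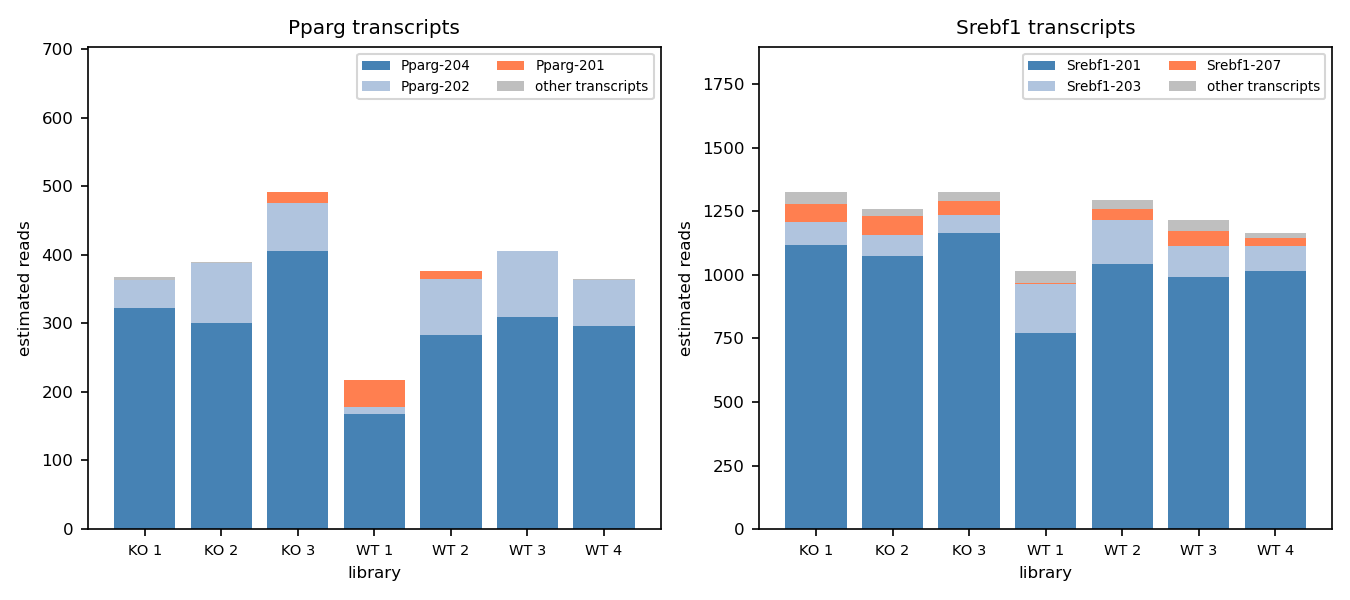
Estimated reads of Pparg (left) and Srebf1 (right) in each library, stacked by transcript, with KO libraries left of WT libraries. Pparg-201, the PPARγ2 form, has reads in KO library 3 and in WT libraries 1 and 2, and Srebf1-201 holds most reads of its gene in all 7 libraries.

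Cebpa encodes C/EBPα, the partner of PPARγ in fat cells and a factor needed for granulocyte formation. The gene (ENSMUSG00000034957.10) lies at chr7:35119293-35121928 on the plus strand. It was at 39.3, 48.7 and 58.8 CPM in the KO libraries, against 34.3, 61.5, 60.3 and 57.5 CPM in the WT libraries. KO library 1 and WT library 1 were low, and the KO values spread across the gap between WT library 1 and the other WT libraries. The mean was 49.0 ± 9.75 CPM in KO against 53.4 ± 12.9 CPM in WT, with a log2 fold change of -0.13 ± 0.21 and a 95% interval of -0.62 to 0.37 (adjusted p = 0.877). Without KO library 3 or WT library 1 it was -0.29, without WT library 2 -0.054, without WT library 3 -0.062, and without KO library 1 it was 0.010. The full-length transcript Cebpa-201 held 98.1 ± 1.10% of Cebpa TPM in KO and 99.5 ± 0.55% in WT.

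A set of 8 granulocyte precursor markers summed to 2632, 2786 and 3341 TPM in the KO libraries and to 1620, 2727, 2567 and 2433 TPM in the WT libraries. Cebpa in TPM and this sum were both lowest in WT library 1 and highest in KO library 3. In CPM Cebpa was highest in WT library 2, at 61.5, and KO library 3 had 58.8. Both TPM values also share the total of their library. Per 1000 TPM of these markers, Cebpa was at 7.07, 7.63 and 8.82 TPM in KO and at 8.18, 9.86, 10.7 and 10.3 TPM in WT. WT library 1 lay between KO libraries 2 and 3 on this scale. All of these markers but Fcnb are also on the list of C/EBPα targets read below, so the scale is not independent of Cebpa. The part of precursor content in the level of Cebpa was not tested.

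Cebpd encodes C/EBPδ, an early factor that is also induced in acute inflammation. The gene (ENSMUSG00000071637.5) lies at chr16:15887286-15891031 on the plus strand and overlaps Spidr on the other strand. Its level was 47.6, 51.7 and 59.1 CPM in the KO libraries, against 39.6, 54.1, 51.9 and 53.8 CPM in the WT libraries. KO library 3 was highest, WT library 1 lowest, and the rest overlapped. The mean was 52.8 ± 5.84 CPM in KO against 49.9 ± 6.91 CPM in WT (log2 fold change 0.08 ± 0.12, 95% interval -0.20 to 0.37, adjusted p = 0.859). Without WT library 1 the log2 fold change was -0.011, without KO library 3 it was -0.014, and without KO library 1 it was 0.15.

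Klf5 encodes a Krüppel-like factor that C/EBPβ and C/EBPδ induce and that acts on the Pparg promoter. The gene (ENSMUSG00000005148.8) lies at chr14:99298691-99315036 on the plus strand. KO libraries had 12.9, 17.6 and 16.5 CPM, against 10.7, 16.0, 15.6 and 15.3 CPM in the WT libraries. WT libraries 2 to 4 lay close together, inside the KO range. The mean was 15.7 ± 2.47 CPM in KO against 14.4 ± 2.51 CPM in WT (log2 fold change 0.12 ± 0.17, 95% interval -0.26 to 0.50, adjusted p = 0.839). Leaving out KO libraries 1, 2 and 3 in turn gave 0.24, 0.030 and 0.075, and leaving out WT library 1 gave 0.004.

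Stat5a encodes a transcription factor that growth hormone, prolactin and many blood cell cytokines activate, and that promotes Pparg expression in precursors of fat cells. The gene (ENSMUSG00000004043.14) lies at chr11:100859351-100885169 on the plus strand, overlaps Stat3 on the other strand and is close in sequence to Stat5b, so reads divided between the pair are uncertain. Its level was 50.2, 52.0 and 43.7 CPM in the KO libraries, against 52.25, 48.6, 51.3 and 49.2 CPM in the WT libraries. WT library 1 was its highest library and KO library 3 its lowest, the reverse of their places for Pparg. The mean was 48.6 ± 4.40 CPM in KO against 50.3 ± 1.73 CPM in WT (log2 fold change -0.05 ± 0.08, 95% interval -0.22 to 0.12, adjusted p = 0.859). Without KO library 3 the log2 fold change was 0.017, without KO library 2 it was -0.10, and without WT library 1 it was -0.031.

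Klf15 encodes a Krüppel-like factor that promotes late fat cell formation and glucose uptake, responds to glucocorticoids and is abundant in muscle. The gene (ENSMUSG00000030087.11) lies at chr6:90462576-90475238 on the plus strand. It had 20, 37 and 82 reads in the KO libraries, against 32, 75, 61 and 64 reads in the WT libraries, or 0.94, 1.78 and 3.71 CPM in KO against 1.72, 3.64, 2.96 and 3.06 CPM in WT. KO library 1 was the lowest of all and KO library 3 the highest, a 3.95-fold span that was the widest of the 10 factors. The mean was 2.14 ± 1.42 CPM in KO against 2.84 ± 0.81 CPM in WT, a log2 fold change of -0.41 ± 0.44 with a 95% interval of -1.42 to 0.61 (adjusted p = 0.786). Without KO library 3 it was -1.07 (adjusted p = 0.284), without WT library 2 it was -0.27, and without KO library 1 it was -0.051.

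A set of 10 skeletal muscle markers summed to 72.7, 586.5 and 4960 TPM in the KO libraries and to 685.6, 1541, 1015 and 1619 TPM in the WT libraries, with none of them at 0 in any library. Klf15 was at 0.44, 0.76 and 1.91 TPM in KO and at 0.63, 1.57, 1.56 and 1.30 TPM in WT. KO library 1 was lowest and KO library 3 highest in both, and KO library 2 and WT library 1 were next lowest in both. The part of muscle RNA in the level of Klf15 was not tested. Its reads also moved between transcripts: Klf15-201 held 87.5 ± 21.6% of Klf15 TPM in KO and 63.0 ± 45.1% in WT, and had 0 reads in WT library 1, where all 32 went to Klf15-204.

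**Figure D3:**
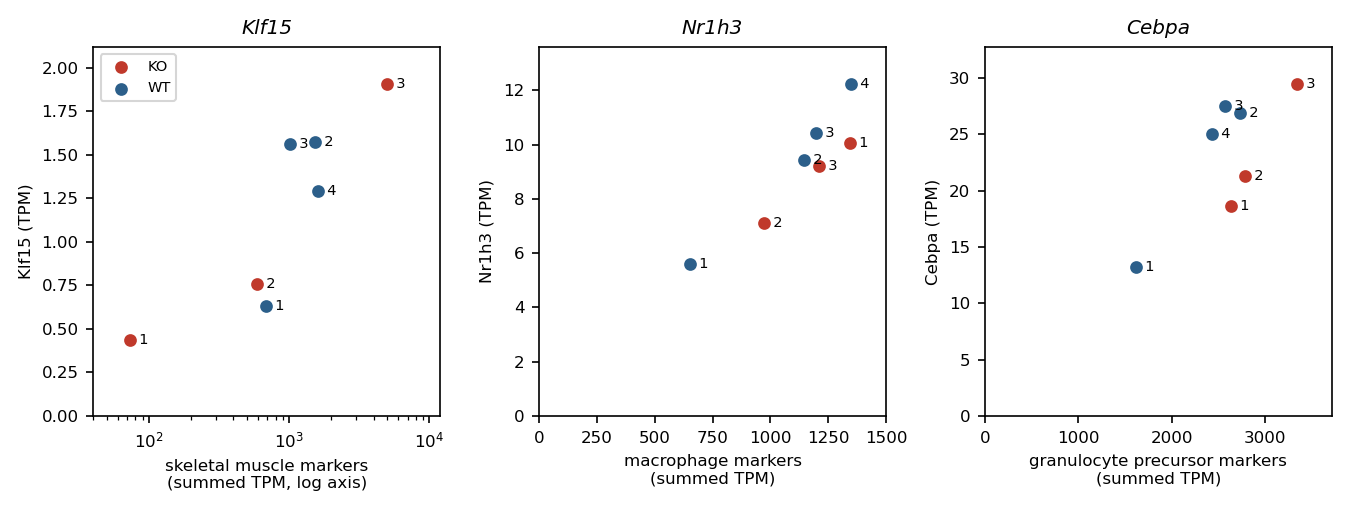
Level of Klf15, Nr1h3 and Cebpa in TPM (vertical) against the summed TPM of 10 skeletal muscle, 13 macrophage and 8 granulocyte precursor markers (horizontal, log axis for muscle), 1 point a library, KO red and WT blue, numbered by library. KO libraries 1 and 3 lie at the ends for Klf15, and the KO points lie below WT points of similar marker level for Nr1h3.

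Zfp423 marks cells committed to become fat cells and acts upstream of Pparg. The gene (ENSMUSG00000045333.15) lies at chr8:87661810-87959595 on the minus strand. It had 78, 84 and 75 reads in the KO libraries, against 49, 68, 54 and 80 reads in the WT libraries, or 3.66, 4.04 and 3.39 CPM in KO against 2.63, 3.30, 2.62 and 3.83 CPM in WT. The KO libraries lay above WT libraries 1, 2 and 3, and WT library 4 lay among them. The mean was 3.70 ± 0.32 CPM in KO against 3.09 ± 0.58 CPM in WT (log2 fold change 0.26 ± 0.19, 95% interval -0.17 to 0.68, adjusted p = 0.661). Its reads fell on different isoforms from library to library: Zfp423-201 had 0, 75.0 and 0 reads in KO and 0, 16.1, 0 and 80 reads in WT, so no isoform level is read from them. With an offset for transcript length the log2 fold change of the gene was -0.009.

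Zfp467 encodes a zinc finger protein that favours fat cells over bone-forming cells in marrow stroma. The gene (ENSMUSG00000068551.12) lies at chr6:48427697-48445825 on the minus strand. KO libraries had 7.51, 7.93 and 8.69 CPM, against 4.93, 8.53, 8.29 and 7.27 CPM in the WT libraries. WT library 1 stood below the other 6 libraries, which lay together. The mean was 8.04 ± 0.60 CPM in KO against 7.26 ± 1.64 CPM in WT (log2 fold change 0.15 ± 0.19, 95% interval -0.28 to 0.58, adjusted p = 0.826). It was 0.081 with KO library 3 left out, 0.004 with WT library 1 left out and 0.23 with WT library 2 left out. Zfp467-206, with 1782 coding bases, held 37.9 ± 5.33% of Zfp467 TPM in KO and 35.6 ± 8.39% in WT. Most reads of the gene were assigned to it. It had 112.6, 140.6 and 163.7 of 160, 165 and 192 reads in the KO libraries. In the WT libraries it had 76.1, 146.8, 104.1 and 135.5 of 92, 176, 171 and 152 reads.

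Srebf1 encodes SREBP-1, a membrane-bound factor that is cleaved to activate the genes of fatty acid synthesis. The gene (ENSMUSG00000020538.15) lies at chr11:60199089-60222581 on the minus strand and overlaps Rai1 on the other strand. Its level was 62.3, 60.6 and 60.1 CPM in the KO libraries, against 54.5, 62.8, 58.9 and 55.9 CPM in the WT libraries. This was the narrowest span of the 10 factors, 1.15-fold from lowest to highest, and WT library 2 was the highest library. The mean was 61.0 ± 1.20 CPM in KO against 58.0 ± 3.66 CPM in WT (log2 fold change 0.07 ± 0.07, 95% interval -0.08 to 0.23, adjusted p = 0.752). It was 0.045 without WT library 1 and 0.11 without WT library 2.

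Srebf1 has an upstream promoter that gives SREBP-1a, the form typical of dividing cells, and an internal promoter that gives SREBP-1c, the form typical of liver and fat, which LXR and insulin induce. The windows are shown because the forms differ in their first exon: chr11:60220578-60220877 for Srebf1-201 (1a) and chr11:60210422-60210721 for Srebf1-207 (1c), both on the minus strand (RefSeq, GRCm38.p6). Capitals mark GGGCGG and, in the 1c window, a direct repeat looked for as a possible LXR site, each searched on both strands. The repeat is GGTNAC followed by GGTNAC after 4 bases of any kind.
Srebf1-201 promoter: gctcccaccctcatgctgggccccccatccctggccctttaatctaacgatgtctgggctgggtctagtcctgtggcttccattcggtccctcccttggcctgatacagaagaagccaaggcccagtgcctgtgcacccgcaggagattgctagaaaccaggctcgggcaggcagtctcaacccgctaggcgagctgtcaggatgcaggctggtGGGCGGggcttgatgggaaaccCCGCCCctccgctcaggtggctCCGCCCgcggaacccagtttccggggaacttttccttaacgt
Srebf1-207 promoter: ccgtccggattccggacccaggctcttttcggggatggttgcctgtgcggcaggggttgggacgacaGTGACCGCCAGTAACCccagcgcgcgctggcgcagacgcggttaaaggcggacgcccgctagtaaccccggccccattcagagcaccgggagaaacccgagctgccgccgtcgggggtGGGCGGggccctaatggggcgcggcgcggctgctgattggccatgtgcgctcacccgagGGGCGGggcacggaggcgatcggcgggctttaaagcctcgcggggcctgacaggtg

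GC boxes numbered 3 in the 1a window and 2 in the 1c window. The direct repeat occurred in the 1c window, at -183 from the start site, and in 0.0548% of all 32851 windows. Its units there read GGTTAC and GGTCAC, which differ only at the N of the searched pattern. The match is therefore not independent of the choice of pattern, and the share of windows describes only how rare these letters are. Binding by LXR was not tested. Srebf1-201 had 1116, 1073 and 1165 reads in the KO libraries, against 770.6, 1043, 993.8 and 1015 in the WT libraries. It held 66.3 ± 5.51% of Srebf1 TPM in KO and 61.7 ± 10.2% in WT, a difference of 4.59 percentage points (exact permutation test, two-sided, p = 0.514, 3 against 4 libraries). The difference was 7.77 points without KO library 1, 2.91 without KO library 3, 0.92 without WT library 1 and 9.16 without WT library 4. The 1c transcript Srebf1-207 had 70.8, 72.0 and 57.0 reads in the KO libraries, against 2.66, 41.4, 60.0 and 30.9 in the WT libraries, and its log2 fold change was 0.93 ± 0.72 (adjusted p = 0.894). WT library 1 had almost none of it, and WT library 3 lay among the KO libraries.

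Nr1h3 encodes LXRα, a receptor for oxidised cholesterol that induces Srebf1 and cholesterol export genes in macrophages and fat cells. The gene (ENSMUSG00000002108.10) lies at chr2:91184061-91202834 on the minus strand. It was at 15.8, 12.9 and 15.1 CPM in the KO libraries, against 12.2, 16.3, 18.0 and 22.3 CPM in the WT libraries. WT libraries 2 to 4 lay above all KO libraries and WT library 1 below them. The mean was 14.6 ± 1.49 CPM in KO against 17.2 ± 4.18 CPM in WT (log2 fold change -0.24 ± 0.19, 95% interval -0.67 to 0.19, adjusted p = 0.687). Without WT library 1 it was -0.37 (adjusted p = 0.390), without WT library 4 it was -0.086, and without KO library 2 it was -0.16. Nr1h3-201 held 50.6 ± 8.22% of Nr1h3 TPM in KO and 59.3 ± 5.94% in WT.

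A set of 13 macrophage markers summed to 1344, 970.1 and 1209 TPM in the KO libraries and to 651.5, 1146, 1197 and 1350 TPM in the WT libraries, and 10 of the 13 were lowest in WT library 1. None was at 0 in any library. Nr1h3 was at 10.1, 7.10 and 9.22 TPM in KO and at 5.61, 9.43, 10.4 and 12.2 TPM in WT, lowest in WT library 1 and highest in WT library 4, as the marker sum was. Per 1000 TPM of macrophage markers, Nr1h3 was at 7.50, 7.32 and 7.63 TPM in KO and at 8.61, 8.23, 8.71 and 9.07 TPM in WT. On this scale, chosen after the values were seen and given without a test, all KO libraries lay below all WT libraries, and 4.65% of all tested genes had groups that did not overlap on it. Mertk and Cd5l are in this marker set and also on the list of LXR targets read below, so the scale is not independent of Nr1h3. The part of macrophage content in the level of Nr1h3 was not tested.

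**Figure D4:**
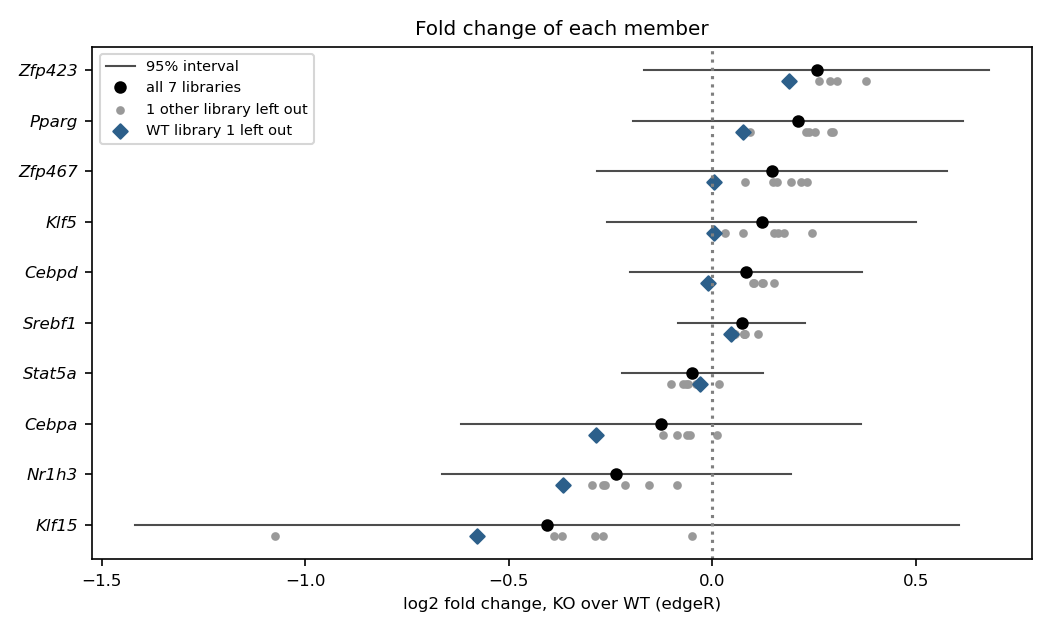
Log2 fold change, KO over WT, of each factor in the edgeR fit of all 7 libraries (black, with its 95% interval) and with 1 library left out (grey, blue diamonds for WT library 1). All 10 intervals include 0, and the values without WT library 1 lie left of the black points for 9 of the 10 factors.

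Library WT 1 stood apart for most of the factors. It was the lowest library for 7 of the 10, while 23.7% of all tested genes were lowest there. The median of the factors relative to their WT mean was -0.03, 0.06 and 0.19 in the KO libraries, against -0.42, 0.14, 0.09 and 0.11 in the WT libraries, on the scale of log2(CPM + 0.5). The median over all tested genes lay within 0.01 of 0 in each library. In the same library haemoglobin held 19.9% of the reads. The summed TPM was the lowest of the 7 there for the stromal, macrophage, monocyte, granulocyte precursor, neutrophil, eosinophil and basophil, endothelial and megakaryocyte markers. Taken singly, 10 of 13 macrophage, 8 of 11 eosinophil and basophil, 7 of 10 neutrophil and 5 of 9 monocyte markers were lowest there. So were 5 of 8 granulocyte precursor, 4 of 13 stromal, 2 of 8 endothelial and 0 of 7 megakaryocyte markers. TPM values share 1 total per library, and erythroid markers took 444150 TPM of it in WT library 1, the most of the 7. Stat5a was highest there in CPM but lowest in TPM, at 11.5. Stromal markers, which include the leptin receptor gene, summed to 1280, 1147 and 1400 TPM in KO and to 717, 1102, 1199 and 1055 TPM in WT. The part of these cell types in the levels of the factors was not tested.

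**Figure D5:**
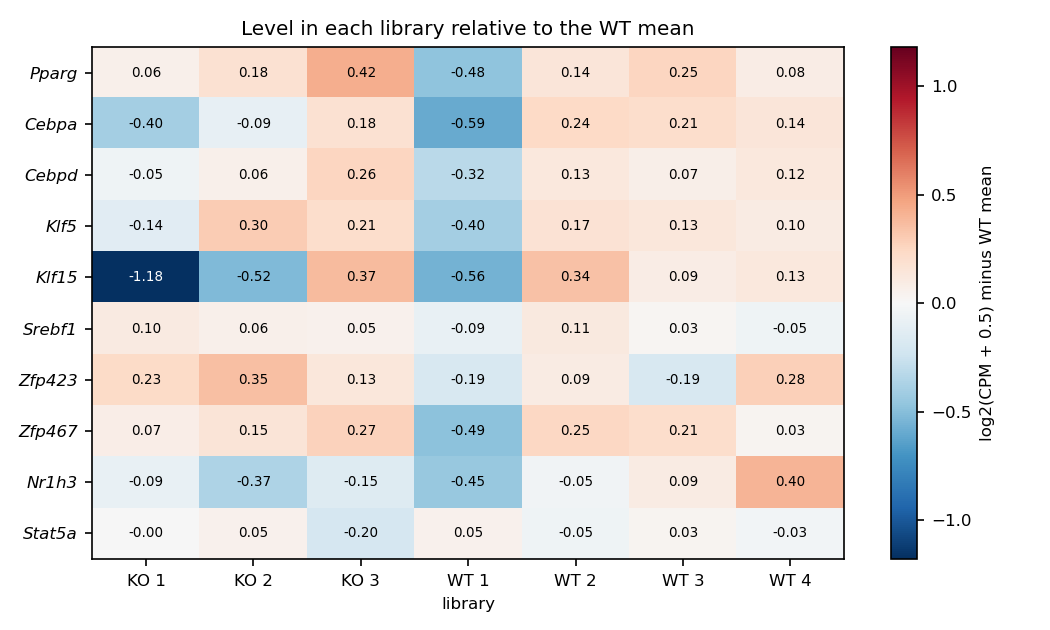
Level of each factor in each library as log2(CPM + 0.5) minus the WT mean, KO libraries left of WT libraries, blue for below and red for above the WT mean. WT library 1 is below the mean for 9 of the 10 factors, with a median of -0.42, and KO libraries 1 and 2 are low for Klf15.

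At the level of transcripts, the files hold 63 transcripts of the 10 genes. Of these, 12 were at 0 in every library and 25 passed the filter. None of the 25 changed by edgeR, where 0.0348% of 34507 tested transcripts did. DESeq2, which called 1.22% of the transcripts it tested, also called 0 of them. In simulated data edgeR's transcript test called 6.32% of 2-fold and 37.4% of 4-fold changes, so it missed most changes of that size. At an unadjusted p under 0.05 there was 1 of 25, beside 6.51% of all tested transcripts. It was Srebf1-203, named after its values were seen, with 93.3, 85.4 and 70.5 reads in the KO libraries against 194.4, 173.6, 119.7 and 99.8 in the WT libraries (log2 fold change -0.91 ± 0.29, adjusted p = 0.615). Its KO and WT reads did not overlap, as for 9.18% of tested transcripts when scaled to library size. Cebpd-201, Klf5-201 and Stat5a-202 each held over 80% of their gene's TPM in both groups, with Stat5a-202 at 89.6 ± 4.01% in KO and 84.6 ± 4.19% in WT.

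Other genes of these pathways were read from 7 lists, 5 of which hold targets of the factors. No list had a changed member by edgeR: 0 of 33 tested for other adipogenic regulators, 0 of 19 for PPARγ targets of fat cells, 0 of 12 for LXR targets, 0 of 15 for SREBP-1 targets, 0 of 15 for STAT5 targets, 0 of 17 for C/EBPα targets of the granulocyte lineage and 0 of 15 for genes that glucocorticoids induce. Unadjusted p-values under 0.05 numbered 5, 0, 1, 1, 5, 1 and 0 in the same order of lists, beside 11.5% of all tested genes. DESeq2 called 2, 0, 1, 1, 3, 1 and 0, and voom called 2, 0, 0, 0, 3, 1 and 0, beside 2.76% of all genes tested with DESeq2 and 2.14% with voom. Among the other regulators DESeq2 called Klf2 and Ebf1, and voom called Klf2 and Foxo1, all lower in KO. Of the 5 other regulators with an unadjusted p under 0.05 in edgeR, 3 were lower in KO and 2 higher. The median log2 fold changes were -0.03, -0.03, -0.02, 0.010, 0.13, 0.18 and -0.004, against -0.01 over all tested genes. Of the PPARγ targets, Lep, Pck1, Plin1, Plin4 and Retn had too few reads to be tested.

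Among PPARγ targets the genes with the smallest p were Adipoq, the fat cell hormone adiponectin, Lipe, hormone-sensitive lipase, and Dgat1, an enzyme of triglyceride synthesis. Adipoq had 47.9 ± 5.59 CPM in KO against 53.6 ± 2.36 CPM in WT (log2 fold change -0.16 ± 0.09, adjusted p = 0.524). Lipe had 23.0 ± 1.59 CPM in KO against 20.3 ± 1.86 CPM in WT (0.18 ± 0.10, adjusted p = 0.538), and Dgat1 82.0 ± 3.63 CPM in KO against 73.9 ± 6.09 CPM in WT (0.15 ± 0.08, adjusted p = 0.538). None passed the test, and their directions differed. The log2 fold change of Adipoq was -0.26 with KO library 1 left out and -0.098 with KO library 2 left out. Other adipogenic regulators were led by Klf2, which restrains Pparg, at 45.0 ± 5.09 CPM in KO against 59.8 ± 3.70 CPM in WT (-0.41 ± 0.09, adjusted p = 0.121). Foxo1, a factor that insulin inactivates, had 14.7 ± 1.64 CPM in KO against 20.6 ± 3.08 CPM in WT (-0.49 ± 0.14, adjusted p = 0.216). Ebf1, which works in both fat cell and B cell formation, had 10.6 ± 2.01 CPM in KO against 17.1 ± 3.52 CPM in WT (-0.69 ± 0.19, adjusted p = 0.200), and 12 B lineage markers, Ebf1 among them, summed to 203.4, 130.9 and 231.6 TPM in KO and to 295.5, 255, 324.7 and 444.7 TPM in WT. The part of B lineage content in Ebf1 was not tested.

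Scd1, a fatty acid desaturase on both the LXR and the SREBP-1 list, had 31.9 ± 6.47 CPM in KO against 52.6 ± 11.8 CPM in WT (log2 fold change -0.72 ± 0.20, adjusted p = 0.201). Its relative Scd2 had 63.4 ± 5.32 CPM in KO against 54.2 ± 8.27 CPM in WT (0.23 ± 0.13, adjusted p = 0.557). Arl4c, another LXR target, had 15.2 ± 2.73 CPM in KO against 17.4 ± 0.81 CPM in WT (-0.20 ± 0.12, adjusted p = 0.601), and Elovl6, a fatty acid elongase, 10.9 ± 2.20 CPM in KO against 9.27 ± 0.36 CPM in WT (0.24 ± 0.14, adjusted p = 0.573). None of these passed edgeR's test, and DESeq2 called Scd1. Without KO library 1 the log2 fold change was -0.33 for Arl4c and 0.37 for Elovl6. It was -0.071 for Arl4c without KO library 2, 0.072 for Elovl6 without KO library 3 and 0.13 for Scd2 without WT library 1.

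Of all list genes, the STAT5 targets Osm and Socs3 came closest to the threshold, followed by the C/EBPα target Trib2. Of the 5 STAT5 targets with an unadjusted p under 0.05 in edgeR, 4 were higher in KO and 1 lower. Of the 15 tested, 9 had a log2 fold change above 0. Osm, the cytokine oncostatin M, had 11.7 ± 0.44 CPM in KO against 8.41 ± 0.66 CPM in WT (log2 fold change 0.48 ± 0.10, adjusted p = 0.086). Socs3, a feedback inhibitor of cytokine receptors, had 15.8 ± 0.65 CPM in KO against 11.7 ± 0.86 CPM in WT (0.44 ± 0.09, adjusted p = 0.088). Ccnd2, a cyclin, had 76.0 ± 9.29 CPM in KO against 54.6 ± 5.88 CPM in WT (0.48 ± 0.11, adjusted p = 0.135). DESeq2 and voom called these 3 genes higher in KO. Neutrophil markers summed to 49326, 49495 and 56257 TPM in KO and to 32049, 42801, 47025 and 43603 TPM in WT. The 9 monocyte markers summed to 1000, 1084 and 1360 TPM in KO and to 423.1, 782.2, 816.1 and 782.3 TPM in WT, and the 8 endothelial markers to 99.4, 96.35 and 97.0 TPM in KO and to 60.0, 78.5, 80.2 and 75.2 TPM in WT. All 3 sums were higher in each KO library than in each WT library. Of the 13 marker lists, the erythroid and B lineage sums were lower in each KO library, and the sums of the remaining lists overlapped. On the TPM scale the median log2 fold change of all tested genes was itself 0.129 (pseudocount 0.1). The part of neutrophils, monocytes and endothelial cells in the STAT5 targets was not tested.

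Trib2, which encodes a protein that promotes breakdown of C/EBPα, had 12.3 ± 0.90 CPM in KO against 18.7 ± 2.61 CPM in WT (log2 fold change -0.60 ± 0.12, adjusted p = 0.092). DESeq2 and voom called it lower in KO. Spi1, the myeloid factor PU.1, had 172.3 ± 8.39 CPM in KO against 139.2 ± 24.5 CPM in WT (0.31 ± 0.14, adjusted p = 0.448), and Ms4a3, a gene of granulocyte precursors, 112.2 ± 20.2 CPM in KO against 93.5 ± 5.76 CPM in WT (0.26 ± 0.12, adjusted p = 0.448). Of the glucocorticoid-responsive genes, Mt1, a metallothionein, had 44.3 ± 4.36 CPM in KO against 53.3 ± 10.04 CPM in WT (-0.27 ± 0.14, adjusted p = 0.533), Mt2 had 28.6 ± 2.35 CPM in KO against 33.8 ± 9.36 CPM in WT (-0.24 ± 0.19, adjusted p = 0.695), and Per1, a clock gene, had 38.8 ± 16.1 CPM in KO against 56.2 ± 23.7 CPM in WT (-0.54 ± 0.42, adjusted p = 0.684). None of these passed edgeR's test. Without WT library 1 the log2 fold change was 0.19 for Spi1, -0.13 for Mt1 and -0.042 for Mt2. It was 0.11 for Ms4a3 without KO library 3, and for Per1 it was -0.26 with KO library 1 left out and -0.88 with KO library 3 left out.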

How the data were processed

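Strand-specific mRNA libraries of bone marrow were sequenced (DNBSEQ), per the labels' protocols, and the genotype label gave the groups. The submitters' processing notes name FastQC 0.11.9, Salmon 1.7.0, DESeq2 and the build GRCm38.p6. The sources used here do not state Salmon's options or annotation release. The authors deposited an estimated count per transcript, not normalized, and a TPM value, corrected for transcript length and scaled to the library.

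GENCODE M21 gave the gene of each transcript by identifier. Of 116546 transcripts, 569 matched no gene and were left out, with up to 0.0662% of a library's reads. Estimated counts were summed per gene, rounded, filtered with filterByExpr (14238 genes left), scaled with TMM (factors 0.918 to 1.06) and tested for genotype with edgeR 4.0.16 (R 4.3.3, quasi-likelihood, Benjamini-Hochberg over all tested genes, threshold 0.05). Transcripts were tested in the same way. Fold changes are KO over WT, and CPM uses TMM-adjusted totals. Isoform shares were compared with a two-sided exact permutation test.

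The 10 factors and the lists were chosen with earlier results of these data known. Named genes were all 10 factors, their transcripts with at least 10% of the gene's TPM, and the 3 genes of each list with the smallest p. Transcripts that held less are named where a promoter or an unadjusted p concerned them. RefSeq promoter windows of build GRCm38.p6 matched 8 of the 10 factors, and 5 windows were printed. Steps were tested on simulated data. Alternatives were RLE scaling, TMM without haemoglobin, immunoglobulin and mitochondrial genes, other filters, DESeq2 1.42.0, voom with sample weights (limma 3.58.1), limma on log2(TPM + 0.1) and on log2(TPM + 1), an offset for length, the sample number as a block, and each library left out. Klf15, with 20 to 82 reads a library, had the widest interval of the 10 factors.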

Additional observations from a re-analysis of the deposited data

Results flagged for a closer look

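In 3 of the 12 groups of WT values examined, WT library 1 lay so far below the other WT libraries that its gap took more than 0.829 of the group's range. Chance gives about 1 such case in 20 groups. Cebpa was at 34.3 CPM in WT library 1 and at 57.5 to 61.5 CPM in the other WT libraries. Cebpd was at 39.6 CPM in WT library 1 and at 51.9 to 54.1 CPM in the others. Klf5 was at 10.7 CPM in WT library 1 and at 15.3 to 16.0 CPM in the others. All 3 cases come from the same library, so they are not independent of each other.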

How the results depend on the processing

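The count of changed factors was 0 under each of the 17 alternatives. Their log2 fold changes gave 170 values, 11 of which changed sign, and 6 of the 10 factors had no such value. Cebpa was at 0.026 with log2(TPM + 0.1), 0.024 with log2(TPM + 1) and 0.010 without KO library 1, with a range of -0.287 to 0.010 over all libraries left out in turn. Cebpd was at -0.021 with voom, -0.014 without KO library 3 and -0.011 without WT library 1 (range -0.014 to 0.151). Zfp423 was at -0.009 with the length offset. Stat5a was at 0.017 with voom and without KO library 3 (range -0.101 to 0.017), 0.079 with log2(TPM + 0.1) and 0.074 with log2(TPM + 1). The TPM scale moved the median of all tested genes by 0.129 (pseudocount 0.1) and 0.103 (pseudocount 1), and relative to that median Cebpa and Stat5a kept their sign and Zfp423 was at -0.039 with pseudocount 1. Of the list genes, Lipe was at -0.002 with the length offset. The difference in PPARγ2 share ranged from -5.83 to 0.1095 points with 1 library left out, the upper value without WT library 1.

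Over all genes, 92 changed (68 higher, 24 lower), against 398 with DESeq2 (253, 145), 305 with voom (183, 122), 55 with the length offset, 49 and 50 with log2(TPM + 0.1) and log2(TPM + 1), and 17 to 65 with 1 library left out. The share called higher was 73.9%, 63.6% with DESeq2, 60% with voom, 87.8% and 90% on the TPM scales. DESeq2 called 2 other regulators, 1 LXR target, 1 SREBP-1 target, 3 STAT5 targets and 1 C/EBPα target, and voom 2, 0, 0, 3 and 1; the cause was not tested. Of the transcripts 12 changed, against 456 with DESeq2 and 0 to 10 with 1 library left out.

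KO and WT libraries share sample numbers 1 to 3, but same-numbered libraries did not deviate together (r of 0.0716, -0.0543 and -0.204), so the numbers were not read as pairs. With the number as a replicate block over 6 libraries, 21 genes and 0 transcripts changed, and 0 factors. Depth and the division of shared reads by Salmon's model limit what can be read from the PPARγ2 transcript, at 0 in 4 of 7 libraries.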

Other observations

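Close relatives of the factors, named for their kinship after the results were seen, were more abundant than the factors in several cases. Nr1h2, which encodes LXRβ, was at 50.8 ± 6.24 TPM over the 7 libraries, against 9.15 ± 2.19 TPM for Nr1h3. Cebpb, the early partner of Cebpd, was at 54.9 ± 12.8 TPM, Srebf2, the regulator of cholesterol synthesis, at 24.4 ± 3.00 TPM, and Stat5b at 18.5 ± 2.60 TPM. Rxra, which encodes the partner that PPARγ and LXR need to bind DNA, was at 6.72 ± 1.18 TPM. None had an adjusted p under 0.05 in edgeR, beside 0.646% of all tested genes, which does not show that their levels were equal. The log2 fold changes were -0.03 ± 0.09 for Nr1h2, 0.13 ± 0.19 for Cebpb, -0.03 ± 0.10 for Srebf2, 0.09 ± 0.07 for Stat5b and -0.07 ± 0.12 for Rxra (SE).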
